A study of Mus musculus with 7 samples.

Results

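The 68 RefSeq gene segments of the T cell receptor beta and gamma loci (Trb and Trg) were examined for LEF1 and TCF1 peaks, out of 49943 RefSeq genes on the chromosomes used. They were chosen by symbol: 53 segments starting with Trbv, Trbd, Trbj or Trbc on chromosome 6 and 15 starting with Trgv, Trgj or Trgc on chromosome 13. In GRCm38.p6 the Trb segments span 667 kb (40891296 to 41558371) and the Trg segments 174 kb (19178042 to 19352343). Peaks counted were the distinct intervals that touched either span or lay within 1 kb of a segment, which came to 40, 52 and 33 in LEF1 replicates 1 to 3 and 38, 31 and 14 in TCF1 replicates 1 to 3.

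The peaks come from CUT&RUN, which releases the DNA next to a protein by tethering a nuclease to an antibody against it. LEF1 and TCF1 (the latter encoded by Tcf7) are transcription factors of the HMG family with closely similar DNA-binding domains, and both act in T cell development. All 6 libraries were made from mouse spleen CD8 T cells of the genotype WT that carry the transgenic P14 receptor, sorted as CD8+, Ly5.1+, CD44- and CD62L+ naive cells, 3 with an antibody to LEF1 and 3 with an antibody to TCF1. An input control of CD8+, Ly5.1- and CD44+ spleen cells is labelled in the series, and no peak list of it was analysed here. The labels give no ages and do not say whether each replicate is another animal. The p-values below therefore cover only differences from library to library, and these may be technical.

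A T cell receptor beta chain gene is assembled in the thymus from 1 V, 1 D and 1 J segment and is then spliced to a constant region (Trbc1 or Trbc2), whereas a gamma chain joins V to J without a D segment. Alpha-beta T cells such as CD8 T cells use an assembled Trb gene, and the gamma chain is not part of their receptor. Known control elements of Trb are a promoter beside Trbd1, another beside Trbd2, a promoter at each usable V segment and an enhancer between Trbc2 and Trbv31. Of Trg, enhancers beside the constant regions and a hypersensitive site between Trgv7 and Trgv4 are known. No file used here gives the coordinates of these elements, so the regions described were not matched to them. The P14 beta chain uses the segment Trbv13-3 and is carried as an added transgene, and a peak list does not tell reads of the transgene from reads of the endogenous segments. Joining segments of the cell's own Trb locus removes or inverts the DNA between them, and how many cells had done so is unknown.

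The lists held 23704 to 37646 peaks for LEF1 and 25623, 22901 and 11423 for TCF1. TCF1 replicate 3, with the shortest list, stands apart, and results that move without it are given both ways. Read totals are not in the files, so absolute depth is unknown. As a check of the cell type, all 6 marker genes of CD8 T cells (among them Cd8a, Cd8b1 and Cd3e) had a peak in at least 2 libraries of each factor at or within 1 kb of the gene, against 1 of 4 B cell, 1 of 4 myeloid and 0 of 3 NK cell genes for each factor, and 0 (LEF1) and 1 (TCF1) of 3 erythroid genes. The same rule called 43.5% (LEF1) and 41.5% (TCF1) of all protein-coding RefSeq genes. With so few genes in each list, the low counts for other cell types are not clearly below that share. Of the CD8 T cell markers, Cd3d, Cd3e and Cd3g lie close together on chromosome 9, so they are not independent. A peak at a gene is not expression.

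Peaks were denser over Trb than over Trg in every library. LEF1 replicates 1 to 3 had 34, 45 and 28 peaks over the Trb span, which are 5.097, 6.75 and 4.20 peaks per 100 kb. TCF1 replicates 1 to 3 had 34, 25 and 12, or 5.097, 3.75 and 1.80 per 100 kb. Over the Trg span the LEF1 libraries had 3, 4 and 2 peaks (1.72, 2.29 and 1.15 per 100 kb) and the TCF1 libraries 2, 4 and 1 (1.15, 2.29 and 0.574 per 100 kb). The means over the 6 libraries were 4.45 ± 1.65 per 100 kb for Trb and 1.53 ± 0.695 for Trg (SD, n = 6), and within a library Trb was 1.63 to 4.44 times as dense. The mean difference, Trg minus Trb, was -2.92 peaks per 100 kb, with Trb higher in 6 of 6 libraries (exact paired permutation test, two-sided, p = 0.03125, the smallest p that 6 pairs allow). That test covers the spread between libraries of the same 2 loci and nothing else.

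The share of bases under peaks differed more than the number of peaks did. Peaks covered 2.26% ± 0.878 of the Trb span and 0.431% ± 0.187 of the Trg span (SD, n = 6), a ratio of 3.48 to 7.48 within a library (exact paired permutation test, two-sided, p = 0.03125). Without TCF1 replicate 3 the mean differences were -3.26 peaks per 100 kb and -2.06 percentage points, and 5 pairs allow no p below 0.0625.

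The genome-wide density was 0.871 to 1.38 peaks per 100 kb in the LEF1 libraries and 0.420 to 0.941 in the TCF1 libraries. Trb stood at 4.29 to 5.41 times the density of its own library, and Trg at 1.22 to 2.73 times. Trg was therefore not below the genome-wide level in any library. Placed beside other antigen receptor loci, Trb resembled the Tra/Trd locus, which encodes the alpha and delta chains and stood at 3.18 to 5.37 times the genome-wide density. Trg resembled the immunoglobulin heavy chain locus Igh, at 0.952 to 1.65 times, while the immunoglobulin kappa locus Igk held 1 peak in 1 of the 6 libraries over 3171 kb. These loci were set side by side as a description, with no test between them.

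**Figure D1:**
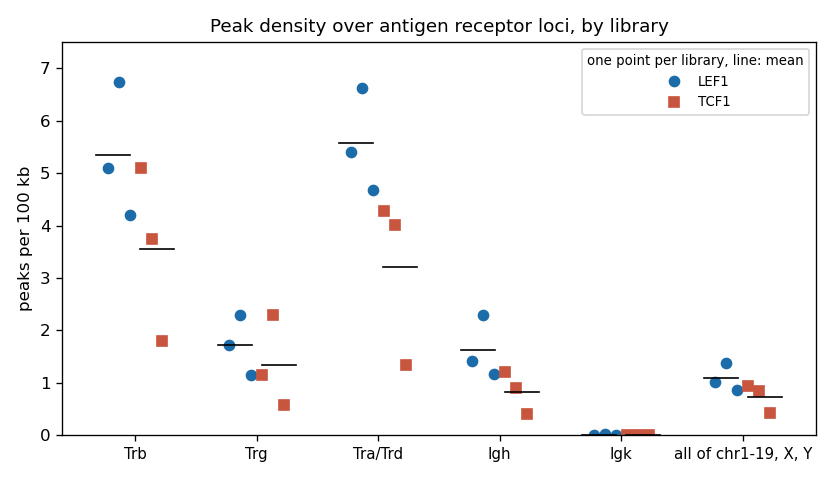
Peaks per 100 kb (vertical axis) over the Trb, Trg, Tra/Trd, Igh and Igk spans and over all chromosomes used; each point is 1 library, circles LEF1 and squares TCF1, and lines are means of 3. Each library's Trb point lies above its Trg point, and the Trg points lie near the genome-wide ones.

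LEF1 and TCF1 were then compared over each locus. The Trb means were 5.35 ± 1.29 (LEF1) and 3.55 ± 1.66 (TCF1) peaks per 100 kb, each over 3 libraries (SD), with overlap between the groups (exact permutation test, two-sided, p = 0.3; the smallest p possible with 3 and 3 libraries is 0.1). The Trg means were 1.72 ± 0.574 and 1.34 ± 0.876 (SD over 3 libraries; two-sided exact permutation test, p = 0.8). Without TCF1 replicate 3 the LEF1 minus TCF1 difference over Trb was 0.924 in place of 1.80 peaks per 100 kb, and that over Trg was 0 in place of 0.382. Without LEF1 replicate 2, the longest list, they were 1.10 and 0.0956. With lists cut to the 11423 peaks of highest −log10 q in each library, the Trb difference was 0.0500 peaks per 100 kb. A difference between the factors beyond the spread of the libraries was thus not detected over either locus.

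Peaks of the 6 libraries were merged into regions where they overlapped by at least 1 bp, and a factor was said to hold a region when at least 2 of its 3 libraries had a peak in it. Over the Trb span and 1 kb on each side, 48 regions were found, of which LEF1 held 36 and TCF1 24. All 24 of the latter were also held by LEF1, so 12 Trb regions were held by LEF1 and not TCF1 and 0 the other way round. Of these 12, 8 had a peak in 1 TCF1 library and 4 in none, so they fell short of the rule for TCF1 by 1 or 2 libraries. With equal list sizes each factor held 14. LEF1 also had more over the whole genome: 2.69% of consecutive 2.5 kb windows had a peak in at least 2 LEF1 libraries, against 2.14% for TCF1. The genome-wide share of LEF1-held regions not held by TCF1 is not given here. The 12 against 0 can therefore not be told apart from the general difference between the lists. Over Trg, 6 regions were found and the same 2 were held by both factors. Consecutive windows of the length of Trb over the whole genome had a median of 2 LEF1-held and 2 TCF1-held regions, with means of 6.72 and 5.20. Windows of the length of Trg had a median of 0 of each, with means of 1.75 and 1.36. By region midpoint, 33 LEF1-held and 22 TCF1-held regions lay inside the Trb span, and 2 and 2 inside the Trg span. As many regions as Trb were held in 2.85% (LEF1) and 4.82% (TCF1) of windows of its length, and as many as Trg in 29.2% and 26.0%, so the Trg counts were close to those of an average window.

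The peaks of Trb were not spread evenly. The V segments Trbv2 to Trbv30 occupy 234 kb and held 20 LEF1 and 13 TCF1 regions. The stretch from Trbd1 to Trbv31, with all D, J and C segments, is 25.2 kb long and held 12 LEF1 and 9 TCF1 regions. In that stretch the libraries had 39.7 to 59.6 (LEF1) and 15.9 to 63.6 (TCF1) peaks per 100 kb, and peaks covered 29.0% to 44.0% and 8.69% to 35.3% of its bases. The lowest TCF1 values there are those of TCF1 replicate 3, and the other TCF1 libraries had 63.6 and 39.7 peaks per 100 kb.

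Long parts of Trb hold digestive protease genes of the trypsin family instead of receptor segments. The 156 kb between Trbv1 and Trbv2 held 0 regions of either factor, and LEF1 replicates 1 and 2 had 1 peak each there. From Trbv30 to Trbd1, over 251 kb, 2 LEF1-held regions were found, one reaching into Trbd1 and the other 6.49 kb before it. For scale, windows of 174 kb over the whole genome had a median of 0 held regions of each factor, with means of 1.75 (LEF1) and 1.36 (TCF1). Held-region counts this low are therefore common in stretches of such length. Of 18 other RefSeq genes inside the Trb span, 1 had a held region within 1 kb, the pseudogene Gm2719, and Prss1, Prss2, Prss3, Try4, Try5 and Try10, which encode trypsins, had no region of any library within 1 kb. Over the whole genome, 26.0% (LEF1) and 24.1% (TCF1) of all RefSeq genes had a peak within 1 kb in at least 2 libraries. Of consecutive 2.5 kb windows, 2.69% and 2.14% had one. Gene length was not matched, so whether 1 of 18 is low cannot be told.

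**Figure D2:**
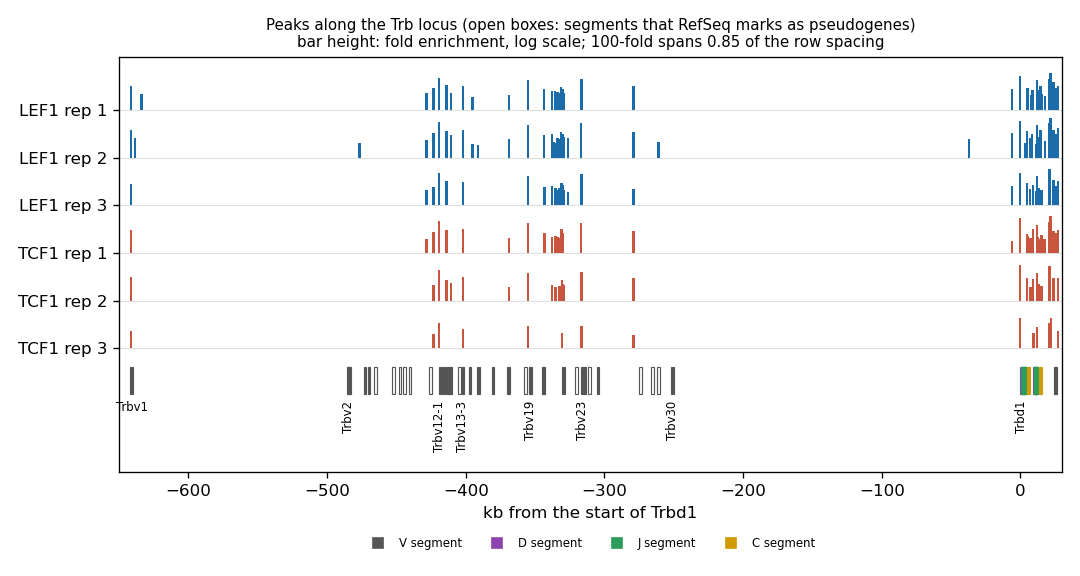
Peaks along Trb, 1 row per library (blue LEF1, red TCF1), with distance from the start of Trbd1 in kb on the horizontal axis and bar height giving the authors' fold enrichment on a log scale; boxes below are segments, open where RefSeq calls them pseudogenes. The rows share peaks at the same V segments and crowd together near 0 kb, and the stretches between Trbv1 and Trbv2 and between Trbv30 and Trbd1 are nearly empty.

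At the level of single segments, 25 of 53 Trb segments (47.2%) had a peak at or within 1 kb in at least 2 LEF1 libraries, and 22 (41.5%) in at least 2 TCF1 libraries. The same rule called 26.0% (LEF1) and 24.1% (TCF1) of all RefSeq genes. Most genes are longer than a segment, and of consecutive 2.5 kb windows, close in length to a V segment with its flanks, the rule called 2.69% and 2.14%. Of 15 Trg segments, 0 were called for either factor, a count near that share of windows. By library, 25, 31 and 23 Trb segments had a peak within 1 kb for LEF1 and 23, 23 and 15 for TCF1 (means 26.3 ± 4.16 and 20.3 ± 4.62, SD over 3 libraries; two-sided exact permutation test, p = 0.3). For Trg the counts were 1, 2 and 0 for LEF1 and 0, 1 and 0 for TCF1 (exact permutation test, two-sided, p = 0.7). Without TCF1 replicate 3 the difference in Trb segments was 3.33 in place of 6. The mean share of segments was 44.0% for Trb and 4.44% for Trg over 6 libraries (exact paired permutation test, two-sided, p = 0.03125). Neighbouring segments share peaks, so segments are not independent.

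V segments recognise antigen together with the joined D and J sequence, and Trb has 35 of them, 22 annotated by RefSeq as V segments and 13 as V pseudogenes. Of the 22, 11 had a peak within 1 kb in at least 2 LEF1 libraries and 8 in at least 2 TCF1 libraries, and of the 13 pseudogenes 0 did for either factor. By library, 11, 12 and 9 of the 22 had a peak within 1 kb for LEF1 and 9, 9 and 5 for TCF1. Among the 13 pseudogenes there was 1 such peak in all, at Trbv29 in LEF1 replicate 2. Some pseudogenes lie singly among the other V segments (open boxes on the map of the locus). Trbv6 to Trbv11 and Trbv27 to Trbv29 form unbroken runs of pseudogenes. Trbv2 to Trbv5, beside the first run and not pseudogenes, had no peak within 1 kb in any library either. Annotation and position are thus not separated here. A count of 0 of 13 is also near the 2.69% (LEF1) and 2.14% (TCF1) of 2.5 kb windows called. With a flank of 5 kb, which reaches neighbouring segments, 5 of 13 were called for each factor. The distinction was noticed in the data and was given no test.

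The called V segments were Trbv1, Trbv12-1, Trbv12-2, Trbv13-2, Trbv13-3, Trbv17, Trbv19, Trbv20, Trbv21, Trbv23 and Trbv31. Trbv13-2, Trbv19 and Trbv20 were called for LEF1 alone, and the difference between the factors at these 3 was not tested. The 3 strongest V regions, by the rank of their fold enrichment, lay at Trbv12-1, Trbv23 and Trbv19. The region at Trbv12-1 (chromosome 6, 41112958 to 41113686) had fold enrichments of 38.0, 58.1 and 39.9 in LEF1 replicates 1 to 3 and 36.3, 31.9 and 16.8 in TCF1 replicates 1 to 3. These fold enrichments are the authors' values for each peak, the signal at the summit over the local background. Since lists differ, each was also ranked within its own list, where 0% is the strongest peak and 100% the weakest, and the Trbv12-1 region stood at 4.36% to 18.7%. All 6 libraries had it, and TCF1 replicate 3 was the lowest.

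At Trbv23 the region (41215588 to 41216407) had fold enrichments of 34.7, 52.2 and 35.1 for LEF1 and 28.9, 25.4 and 12.2 for TCF1. It ranked at 5.48% to 34.4%, again with TCF1 replicate 3 as the weakest. The region nearest to Trbv19 (41177002 to 41177602, 0.987 kb from the segment) had 30.5, 39.4 and 27.0 for LEF1 and 29.8, 22.3 and 12.4 for TCF1. Trbv19 was not called for TCF1 because the TCF1 peaks in this region ended just beyond 1 kb from the segment. Trbv1, which stands alone at the far end of the locus, had a weaker region in all 6 libraries (40890957 to 40891406), with fold enrichments of 11.2 to 22.5 for LEF1 and 6.91 to 14.1 for TCF1.

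Summits at V segments fell on either side of the segment. At Trbv1, Trbv12-1, Trbv12-2 and Trbv23 the median summit stood at -169, -163, -402 and -18 bp from the first base of the segment, where negative values are lower coordinates. Another set lay just past the last base. The median summit was 108 bp past it at Trbv13-2, 118 bp at Trbv17, 178 bp at Trbv20 and, for 1 of the 3 regions at Trbv21, 120 bp. For 1 region at Trbv31 (41558381 to 41559000) it was 101 bp past the last base. The regions past the last base had fold enrichments of 4.92 to 15.1, which overlapped the 6.91 to 22.5 at Trbv1 and the 10.9 to 20.7 at Trbv12-2. The region at Trbv12-1 (16.8 to 58.1) lay above that range in every library, and that at Trbv23 (12.2 to 52.2) in all but TCF1 replicate 3. The gene table used here has no strand, so upstream and downstream were not assigned.

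Trbv13-3, the V segment of the P14 beta chain, had a region inside the segment in all 6 libraries (41130331 to 41130579, inside the segment at 41130147 to 41130585). Its fold enrichments were 14.5, 21.7 and 14.2 for LEF1 and 15.2, 13.8 and 9.22 for TCF1, and its 6 summits lay within 18 bp. Ranked by fold enrichment it stood at 24.0% to 52.7% of its lists, and ranked by the deposited −log10 q at 13.9% to 28.8%, higher by −log10 q in each library. The gap between the ranks was 10.05 to 23.8 percentage points. The same order was found in every library at 5 of the 13 Trb regions present in all 6, Trbv13-3 included. At Trbv1 the gap was 3.14 to 6.68 points and at the region past Trbv31 2.66 to 5.98, and at Trbd2 and between Trbc2 and Trbv31 it was smaller. At Trbv12-2, with 5 libraries, it was 8.52 to 12.2 points, and at Trbv12-1 the order was the opposite in every library. Whether transgene copies or sequence shared between the Trbv12 and Trbv13 segments contribute reads here was not tested.

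Between Trbv20 and Trbv21 a run of weak regions lay mostly away from any segment. Over 13.6 kb the LEF1 libraries had 7, 10 and 7 peaks and the TCF1 libraries 7, 5 and 1, which made 7 LEF1-held and 5 TCF1-held regions. The region 0.874 kb before Trbv21 (41201235 to 41201713), the only one of this run in all 6 libraries, had fold enrichments of 11.9 to 17.8 for LEF1 and 5.84 to 15.9 for TCF1. Another region in all 6 libraries lay over the pseudogene Gm2719, 4.50 kb from Trbv27 (41253196 to 41253626). Its fold enrichments were 15.4, 17.3 and 6.12 for LEF1 and 11.8, 13.3 and 4.37 for TCF1. The other held regions among the V segments were weak as well. A pair lay on both sides of Trbv11, that at 41109026 to 41109473 in all 6 libraries with 4.99 to 16.3 and the other in 4 libraries with 4.57 to 7.27. One near Trbv14 (2 LEF1 libraries) and one past Trbv21 (2 LEF1 libraries) had fold enrichments of at most 4.83 and 9.53.

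By fold enrichment, the 2 strongest Trb regions lay at Trbd1 and between Trbc2 and Trbv31 in every library except LEF1 replicate 3. There the region at Trbv12-1 (39.9) came before that at Trbd1 (38.6). Both D segments, which add a short stretch between V and J, were called for each factor. The region at Trbd1 (41532029 to 41533632) had fold enrichments of 45.2, 61.1 and 38.6 in LEF1 replicates 1 to 3 and 52.1, 56.8 and 31.5 in TCF1 replicates 1 to 3. It ranked at 3.86% to 6.01% of the LEF1 lists and 2.47% to 4.36% of the TCF1 lists, so it was among the strongest peaks of every list, TCF1 replicate 3 included. Its summit lay before the segment, at a median of -372 bp from the first base, and it also came within 1 kb of Trbj1-1, Trbj1-2 and Trbj1-3. The region at Trbd2 (41540920 to 41542444) was weaker, with 10.02, 14.05 and 9.39 for LEF1 and 15.3, 11.2 and 5.61 for TCF1, and its median summit stood at -219 bp from the first base of Trbd2. Around both D segments the fold enrichments of LEF1 and TCF1 overlapped.

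Of the 14 J segments, which join to D and then splice to C, 10 were called for each factor. They were called through regions beside them: 3 of the Trbj1 segments through the Trbd1 region, and all 7 Trbj2 segments through the Trbd2 region or a region on the other side. Of consecutive 2.5 kb windows, 2.69% (LEF1) and 2.14% (TCF1) were called. These 10 J segments share a few regions, so their calls are not independent. A further weak region at Trbj2-4 was held by LEF1 alone (4.57 and 4.95 in LEF1 replicates 2 and 3). The region on the other side of the Trbj2 run (41544094 to 41545113) started 0.238 kb past the end of Trbj2-7, between it and Trbc2, with fold enrichments of 31.1, 40.5 and 29.0 for LEF1 and 24.1, 24.0 and 11.2 for TCF1. Its summits lay within 34 bp in the 6 libraries. Trbj1-4 to Trbj1-7 had a peak within 1 kb in LEF1 replicate 2 alone.

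Both constant regions were called for LEF1 and TCF1, through peaks in 3 LEF1 libraries and 2 TCF1 libraries each. At Trbc1 (41538219 to 41539665) the region at its lower end had fold enrichments of 11.4, 20.2 and 11.9 for LEF1 and 8.62 and 13.3 for TCF1 replicates 1 and 2. Another region touched Trbc1 at its higher end (41539176 to 41540203, 4.92 to 9.32). Trbc2 (41546730 to 41548181) was touched by 2 regions, the narrower of which (41546932 to 41547070) had 14.6 and 23.1 in LEF1 replicates 1 and 2 and no peak in the other 4 libraries. The wider one (41547276 to 41548268) had 5.52 to 11.1. A region 0.017 kb from Trbc2 on its lower side (41545240 to 41546713) had 6.09 to 10.5. These 2 and the one at the higher end of Trbc1 were each in 5 libraries and held by both factors. TCF1 replicate 3 had no peak within 1 kb of either constant region. The constant regions are near-identical copies, and how reads that match both were placed is not given in the sources used here, so peaks inside them are uncertain.

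The strongest Trb region lay between Trbc2 and Trbv31, at 41552902 to 41555381, 2.31 kb from Trbv31. Its strongest peak had fold enrichments of 68.0, 92.8 and 60.1 in LEF1 replicates 1 to 3 and 65.2, 51.6 and 29.9 in TCF1 replicates 1 to 3. That placed it at 1.22% to 1.95% of the LEF1 lists and 2.05% to 5.04% of the TCF1 lists. In LEF1 it was the highest Trb peak in all 3 libraries. In TCF1 replicate 1 it was also the highest, and in TCF1 replicates 2 and 3 it came after the Trbd1 region. It was listed as 2 peaks in 4 libraries and as 1 peak in LEF1 replicate 3 and TCF1 replicate 2. Trbv31, which lies beyond the constant regions, had weaker held regions on both sides, at 41556184 to 41556799 in 5 libraries, 41558381 to 41559000 in 4 and 41559324 to 41559796 in all 6. One more, held by LEF1 alone, lay 1.57 kb past Trbc2, with fold enrichments of 4.65 to 6.70.

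**Figure D3:**
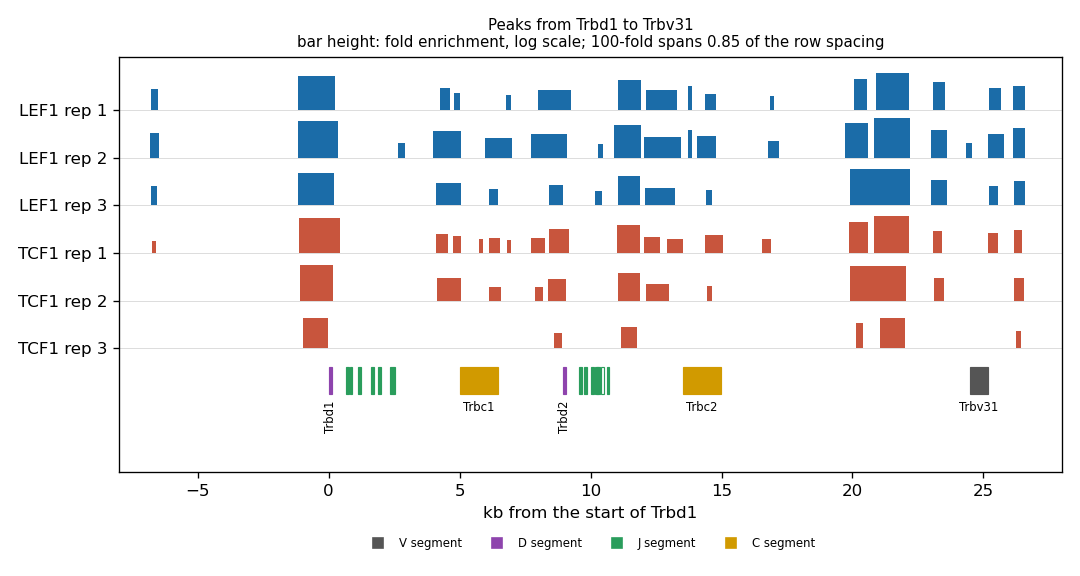
Peaks from Trbd1 to Trbv31, 1 row per library (blue LEF1, red TCF1), with distance from the start of Trbd1 in kb and bar height giving the authors' fold enrichment on a log scale; boxes are segments. Every row has tall peaks at Trbd1, between the Trbj2 segments and Trbc2, and between Trbc2 and Trbv31, and TCF1 replicate 3 lacks most of the weaker ones.

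Trg contrasted with this in number and in place. None of its 7 V, 4 J and 4 C segments was called, and Trgc1, Trgc2, Trgc3 and Trgc4 had no peak within 1 kb in any library. A count of 0 of 15 is near the 2.69% (LEF1) and 2.14% (TCF1) of 2.5 kb windows called, so it is not read as a trait of Trg. Peaks within 1 kb were found at Trgv7 and Trgv6 in 1 LEF1 library each and at Trgv1 in LEF1 replicate 2 and TCF1 replicate 2. Trgc1, Trgc2 and Trgc3 are closely similar copies, and if reads that match several places were dropped or spread, peaks there could be missed; this was not tested.

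Both held Trg regions lay away from segments. The stronger one (chromosome 13, 19182240 to 19182777) lay between Trgv7 and Trgv4, 2.20 kb from Trgv4 and inside the long non-coding RNA gene Gm31887. It was present in all 6 libraries, with fold enrichments of 18.3, 23.1 and 15.2 for LEF1 and 18.7, 18.0 and 9.53 for TCF1, and its summits lay within 42 bp. It ranked at 22.0% to 31.3% of the LEF1 lists and 25.7% to 50.1% of the TCF1 lists. No Trg peak in any library was as strong as the highest Trb peaks: the highest Trg fold enrichments, 9.53 to 23.1 over the libraries, stood against 31.5 to 92.8 for Trb.

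The second held region (19300443 to 19300728) lay 4.33 kb from Trgc2 on its lower-coordinate side. Its fold enrichments were 6.88, 10.2 and 8.36 for LEF1 and 8.34 and 6.71 for TCF1 replicates 1 and 2, with no peak in TCF1 replicate 3. Another region lay 3.11 kb past Trgc1 (19219723 to 19219894), in LEF1 replicate 2 (8.14) and TCF1 replicate 2 (6.71) alone, with summits within 4 bp. The stretches from Trgv3 to Trgc3, from Trgc2 to Trgv2 and from Trgv1 to Trgc4 had no peak in any library.

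**Figure D4:**
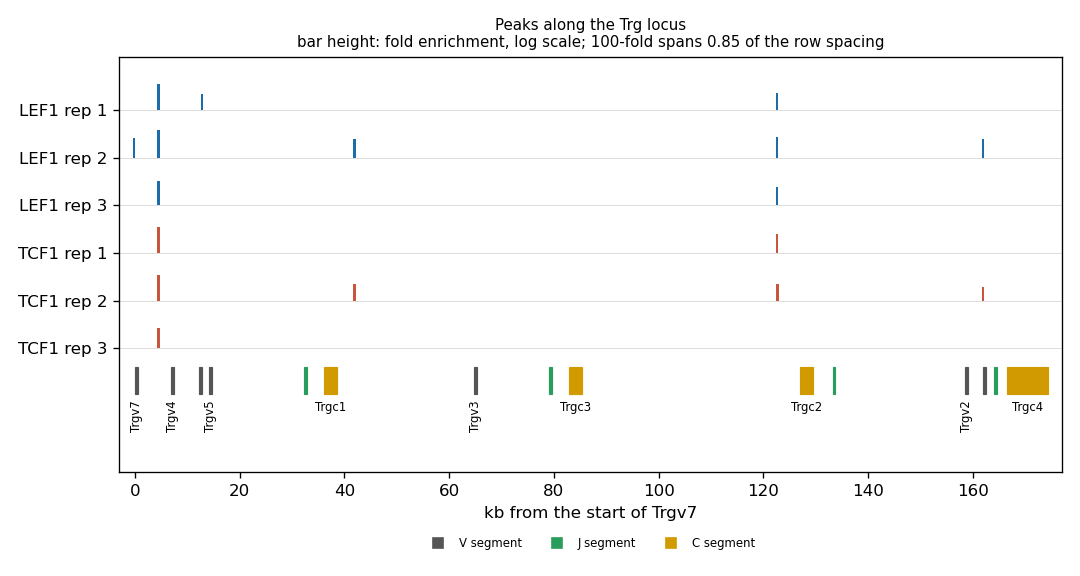
Peaks along Trg, 1 row per library (blue LEF1, red TCF1), with distance from the start of Trgv7 in kb and bar height giving the authors' fold enrichment on a log scale; boxes are segments. One peak between Trgv7 and Trgv4 is shared by all 6 rows, a second near Trgc2 by 5 rows, and no constant region carries a peak.

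Ranks within the full lists overlapped between the factors. The median rank percentile of Trb peaks was 50.6%, 51.5% and 62.8% for LEF1 and 60.2%, 53.3% and 37.0% for TCF1, which overlapped (means 55.0 ± 6.83 and 50.2 ± 11.9, SD over 3 libraries; two-sided exact permutation test, p = 0.7). For Trg, with 1 to 4 peaks a library, the medians were 47.4% to 77.7% for LEF1 and 45.5% to 80.0% for TCF1 (exact permutation test, two-sided, p = 0.9). In lists of equal size the libraries of the factors did not overlap, in opposite directions at the loci. The Trb medians were then 35.6%, 31.0% and 25.8% for LEF1 and 39.5%, 56.6% and 37.0% for TCF1, so LEF1 peaks ranked stronger, by -13.6 percentage points (exact permutation test, two-sided, p = 0.1, the smallest possible). Trg then had 1 peak in each library, the one between Trgv7 and Trgv4, at 62.8%, 72.5% and 64.9% for LEF1 and 57.6%, 52.6% and 50.1% for TCF1, a difference of 13.3 points (exact permutation test, two-sided, p = 0.1). In the full lists typical Trb peaks were of middling strength, and the few strong ones described above were exceptions. Of regions in all 6 libraries, 13 were Trb regions and 1 a Trg region.

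**Figure D5:**
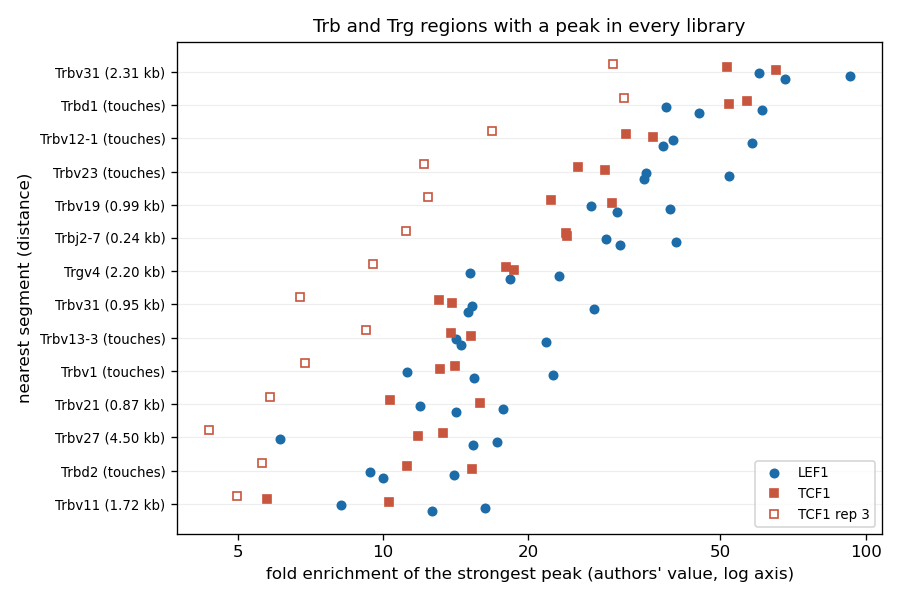
Fold enrichment of the strongest peak in each library (horizontal log axis, the authors' values) for the Trb and Trg regions with a peak in all 6 libraries, labelled by nearest segment and distance; circles LEF1, filled squares TCF1 replicates 1 and 2, open squares TCF1 replicate 3. The region between Trbc2 and Trbv31 and that at Trbd1 are highest, and the open squares are the lowest of every row.

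Genes of receptor assembly and of the receptor complex were read by the same rule. Of 15 such genes, 13 had a peak at or within 1 kb of the gene in at least 2 libraries of each factor, where 43.5% (LEF1) and 41.5% (TCF1) of protein-coding genes did. Rag1, which with Rag2 cuts the DNA at the segments, and Ptcra, which encodes the partner of the beta chain before the alpha chain is made, had no held region. Rag2 had 1 region held by each factor. Dntt, which adds bases at the joins, had 3 LEF1-held and 2 TCF1-held regions. Among the genes of DNA end joining, Xrcc6 had 3 and 2, Dclre1c 2 and 2, Lig4 1 and 2, and Xrcc5, Prkdc, Xrcc4 and Nhej1 had 1 of each. Of the CD3 chains, which carry the receptor's signal, Cd3d had 4 and 3, Cd3e 3 and 3, Cd3g 3 and 2, and Cd247 15 and 12 over a gene of 91.2 kb. Cd3d and Cd3g lie next to each other and can share regions. Longer genes have more room for regions, and no length was matched here.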

How the data were processed

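Peaks were called by the authors in each library separately, since the peak names carry the library. The submitters' processing notes name MACS3 3.0.3, Bowtie2 2.4.4, Picard, deepTools 3.5.1, Trim Galore 0.6.6 and FastQC 0.12.1, and build GRCm38.p6. On caller options, the control, and the treatment of duplicates and multiply matching reads, the sources used here say nothing. The deposited fold enrichment is a ratio of summit signal to local background, p and q are deposited as −log10 values, and the deposited score, an integer form of −log10 q, was not used. Absolute depth is unknown, and the number of libraries limits the precision.

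Peaks off chromosomes 1 to 19, X and Y were left out, and coordinates are 1-based. Segment positions came from a RefSeq table of GRCm38.p6 that has neither strand nor exons, so exonic and intronic positions are not given, and segment sequences were not used here. Differences were tested with exact permutation tests over libraries. Named were all D and C segments, Trbv1, Trbv13-3, Trbv31, segments with a peak in at least 2 libraries of a factor, Trgc1 to Trgc4, and held regions. Those between Trbv20 and Trbv21 were mostly given as a count. Members and lists were chosen with earlier results of these data known. The counting code was tested on simulated peak lists and recovered the planted counts in 100% of 6 libraries. Alternatives are described in the closing section. Python 3.11.15, numpy 2.4.6 and pandas 2.3.3 were used.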

Additional observations from a re-analysis of the deposited data

How the results depend on the processing

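Trb stayed above Trg in density, covered bases and share of segments under every alternative tried. Leaving out 1 library gave differences, Trg minus Trb, of -3.26 to -2.61 peaks per 100 kb, -2.06 to -1.62 percentage points of bases and -41.8 to -38.5 percentage points of segments, all at p = 0.0625, the smallest exact permutation p that 5 pairs allow. With equal list sizes they were smaller, at -1.30 peaks per 100 kb and -1.04 percentage points of bases, and with −log10 q of at least 10 the density difference was -1.86. With no flank the segment difference was -17.4 percentage points. The exact permutation p stayed at 0.03125 in these settings. The comparisons of LEF1 with TCF1 passed no threshold under any setting, and the design could not reach one. Their signs changed as follows. With equal list sizes the difference in median rank percentile over Trb was -13.6 and that over Trg 13.3 (exact permutation p = 0.1 for each, the smallest possible), and leaving out 1 library gave -1.77 to 9.83 for Trb and -3.74 to 14.6 for Trg. Leaving out 1 library gave 0.924 to 2.57 peaks per 100 kb over Trb, lowest without TCF1 replicate 3, where the Trg difference was 0. Relative to each library's genome-wide density, the Trg difference was -0.214. The cause was not tested.

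Counts of held regions depend on list length. Trb regions held by LEF1 were 23 with −log10 q of at least 10 and 14 with equal list sizes, and 28 to 36 leaving out 1 library. Those held by TCF1 were 13 when all 3 libraries were required, 15 with −log10 q of at least 10, 14 with equal list sizes, and 13 to 24 leaving out 1 library, the count being 13 without TCF1 replicate 1 and without TCF1 replicate 2, when a region needed a peak in TCF1 replicate 3. For Trg, LEF1 held 1 with equal list sizes, and TCF1 held 1 in each of these 3 settings and 1 to 2 leaving out 1 library, again 1 without TCF1 replicate 1 or 2. The alternatives for V segments were chosen after seeing the data. With no flank 6 (LEF1) and 5 (TCF1) of the 22 V segments were called, and with 5 kb 15 and 13. Without TCF1 replicate 1 or 2 the TCF1 count was 5, within a range of 5 to 8 leaving out 1 library. V pseudogenes stayed at 0 except with 5 kb, where 5 were called for each factor. No interval was listed with more than 1 summit, so counting summits changed nothing.

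The numbering is ambiguous, since the library names carry other numbers than the titles, with 1 number common to both factors. By the titles' numbers, which were used, the libraries were not taken as pairs. Over 10890 regions of all 6 libraries the same-number correlations of deviations were 0.0393, 0.0720 and 0.0930, although each LEF1 library correlated best with its own number. With the replicate block the Trb difference of 1.80 peaks per 100 kb had an exact permutation p of 0.5, and no call changed.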
